A study of Mus musculus with 12 samples.

Results

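Collagen is modified by a small set of enzymes before it leaves the cell, and 10 genes of that set are described here in soleus, the slow postural muscle of the calf. The genes are the prolyl 4-hydroxylase subunits P4ha1 and P4ha2, the prolyl 3-hydroxylase family P3h1, P3h2, P3h3 and P3h4, the lysyl hydroxylases Plod1, Plod2 and Plod3, and the procollagen chaperone Serpinh1. They were chosen by symbol from the 30323 genes of the table, and the choice drew on P3h4 being lower after laparotomy in high functioning mice. The difference of P3h4 in that contrast is therefore a description with no test, and so are the other members' values there.

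The samples were 12 libraries of soleus RNA from male C57BL/6N mice aged 24 months, from the aging colony of the National Institute on Aging. All mice were housed singly and had a running wheel for 8 weeks. An accelerating rotarod, a test of balance and stamina, graded them as low functioning (LF) or high functioning (HF), and they then had a laparotomy, an opening of the abdominal wall, or served as controls. Each of the 4 groups, control and laparotomy within LF and within HF, had 3 libraries, and muscle was taken 5 days after surgery. The labels do not state that each library came from a separate mouse, so the p-values measure the spread between these libraries. Levels are in TPM, a transcript's share of its library corrected for transcript length. The deposited TPM summed to 956473 to 962830 per library, with 16993 to 18148 genes above 0, and read depth is unknown. The slow myosin gene Myh7 lay between 2180 and 3340 TPM in every library, so the tissue had the slow fibre gene its label calls for. Of the fast myosin genes, Myh2 lay between 1100 and 3380 TPM, Myh1 between 329 and 1140 and Myh4 between 3.05 and 90.8. In bulk muscle, fewer cells of a type and less RNA per cell cannot be told apart.

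Prolyl 4-hydroxylase makes the hydroxyproline that keeps the collagen triple helix stable at body temperature; P4ha1 and P4ha2 are alternative catalytic subunits that pair with P4hb. Lysyl hydroxylases make the hydroxylysine from which mature crosslinks form after Lox-type enzymes have acted outside the cell, and Plod2 acts mainly on the end regions called telopeptides. P3h1 forms a complex with Crtap and the cyclophilin Ppib that modifies single prolines of fibrillar collagen, P3h2 acts on basement membrane collagen, and P3h3 joins P3h4 and Plod1 in a complex for lysyl hydroxylation. P3h4 has no catalytic domain of its own. In muscle these genes are used by the connective tissue cells of the interstitium and tendon ends and, for basement membrane collagen, by fibres and vessels as well.

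P4ha1, the member that differed between LF and HF muscle, and P4ha2, its alternative subunit, are shown by the 250 bases before their RefSeq start (GRCm38.p6). P4ha1 lies on chromosome 10 (chr10:59323296-59373304, plus strand, GRCm38) and P4ha2 on chromosome 11 (chr11:54100095-54131665, plus strand). The windows are chr10:59323046-59323295 and chr11:54100674-54100923, both on the plus strand, and no annotated exon overlaps either. The P4ha1 window ends where the annotated gene begins. The P4ha2 window lies inside the annotated gene, before a later start, so the windows are not equivalent. Capitals mark ACGTG on either strand, a form of the core of the hypoxia response element, since P4ha1 is a known target of the hypoxia-inducible factors. The form GCGTG was not marked or counted.
P4ha1: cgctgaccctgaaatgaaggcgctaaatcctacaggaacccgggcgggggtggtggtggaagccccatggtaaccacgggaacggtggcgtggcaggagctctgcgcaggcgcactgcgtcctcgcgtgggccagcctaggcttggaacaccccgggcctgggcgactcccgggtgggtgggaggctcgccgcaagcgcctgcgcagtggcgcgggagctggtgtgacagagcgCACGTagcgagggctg
P4ha2: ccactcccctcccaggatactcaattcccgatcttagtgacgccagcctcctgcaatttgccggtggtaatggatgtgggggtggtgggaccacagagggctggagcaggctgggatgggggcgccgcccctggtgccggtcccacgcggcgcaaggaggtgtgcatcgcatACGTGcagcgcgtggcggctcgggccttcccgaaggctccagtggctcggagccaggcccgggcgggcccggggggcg
Each window held 1 match to ACGTG, beginning 16 bases before the start in P4ha1 and 78 bases before it in P4ha2. Of all 32851 RefSeq windows of this length, 16.6% held the letters at least once. Windows were matched for 7 of the 10 members (P3h2, P3h4 and Plod2 had none), and among their 8 starts 5 held a match: P4ha1, P4ha2, Plod3, Serpinh1 and the later of the P3h1 starts. A match is a string of letters, not a measured binding site.

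All 10 members had a mean of at least 1 TPM, the level required for testing, and none was abundant. P3h2 was the highest, with a mean of 15.7 TPM and a range of 10.5 to 19.6. P4ha2 followed at 12.6 TPM, Plod1 at 10.9, Plod3 at 9.84, P4ha1 at 6.04, P3h4 at 5.19, Serpinh1 at 4.04, P3h1 at 3.09, P3h3 at 1.48 and Plod2 at 1.27 TPM. The order of neighbours was firm at 3 steps, where the higher gene led in 12 of 12 libraries: P4ha2 over Plod1, Plod3 over P4ha1, and P3h1 over P3h3. It was loosest between P3h4 and Serpinh1 and between P3h3 and Plod2, where the higher gene led in 8 of 12 libraries. P4hb, the shared subunit that also works as a protein disulfide isomerase, stood far above all of them at a mean of 97.8 TPM.

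**Figure D1:**
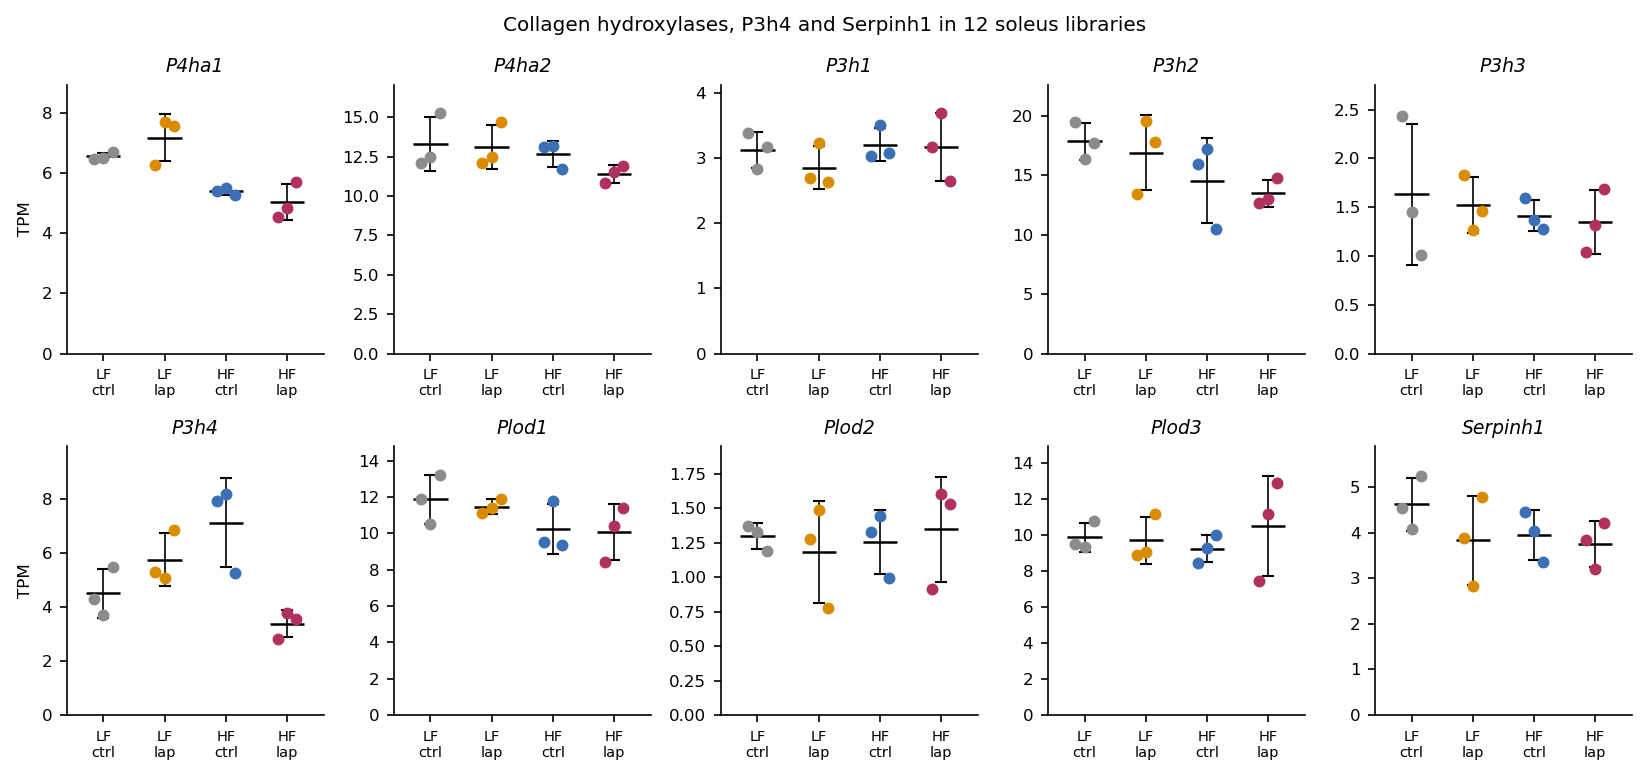
TPM of the 10 members in each of the 12 libraries (points), with the group mean (line) and SD (bar); each panel has its own vertical axis, starting at 0. The 6 HF points of P4ha1 all lie below the 6 LF points, and the HF laparotomy points of P3h4 lie below the HF control points.

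HF and LF soleus were compared as 6 libraries against 6, averaged over control and laparotomy. P4ha1 fell in HF muscle, and it was the only member of 10 that passed the threshold. Among all 10757 tested genes 41.3% passed, 35.3% lower and 6.03% higher, so the share of members called was smaller. That background was not matched to the members in level. Of the genes averaging at least 5 TPM, 3278 of 6657 passed. Rescaled by median-of-ratios size factors, which set the typical gene to no difference, 40% of all tested genes passed, 22.6% lower and 17.5% higher. P4ha1 was again the only member. The P4ha1 levels in LF control were 6.47, 6.5 and 6.71 TPM, and in LF laparotomy 6.29, 7.7 and 7.57. In HF control they were 5.4, 5.51 and 5.29 TPM, and in HF laparotomy 4.56, 4.84 and 5.7. Every HF library was below every LF library, a separation that 9.31% of tested genes showed in this direction. The HF mean of 5.22 TPM was 24.1% below the LF mean of 6.87. On the log2(TPM + 1) scale P4ha1 was 0.34 lower as deposited, and all tested genes had a median difference of -0.15, so differences are given from here on minus that median. P4ha1 then stood at -0.19 ± 0.075 (SE, 6 libraries against 6; limma, Benjamini-Hochberg adjusted p = 0.00394). The test itself is of the difference as deposited. With size factors, limma gave P4ha1 an adjusted p of 0.00993.

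P4ha2 did not pass the threshold. Its levels were 12.1, 12.5 and 15.3 TPM in LF controls and 12.1, 12.5 and 14.7 after laparotomy in LF; HF controls had 13.1, 13.2 and 11.7 and HF mice after laparotomy had 10.8, 11.5 and 11.9. Its difference was 0.02 ± 0.08 (limma, adjusted p = 0.231), with LF and HF ranges that overlapped. P4ha2 made up 66.9% ± 2.33 (SD, n = 3) of the summed P4ha1 and P4ha2 TPM in LF control and 64.6% ± 2.33 in LF laparotomy. The share was 70.1% ± 1.06 in HF control and 69.4% ± 1.57 in HF laparotomy. It spanned 61.9% to 69.5% over the LF libraries and 67.6% to 70.9% over the HF libraries, so the ranges overlapped at their edge. The difference between the subunits was not tested.

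P3h2 was the next nearest to the threshold. It had 19.5, 16.4 and 17.7 TPM in LF controls and 13.4, 19.6 and 17.8 after laparotomy in LF; HF controls had 16, 17.2 and 10.5 and HF mice after laparotomy had 12.7, 13 and 14.8. The difference was -0.15 ± 0.12 (limma, adjusted p = 0.0623), and the ranges overlapped. Leaving out LF laparotomy 1, the lowest LF library, gave limma an adjusted p of 0.0185, and leaving out HF control 2 gave 0.0302. Of the other members, Plod1 had a difference of -0.04 ± 0.091 (limma, adjusted p = 0.111) and P3h1 of 0.22 ± 0.084 (adjusted p = 0.531, since its difference as deposited was 0.07). P3h3, P3h4, Plod2, Plod3 and Serpinh1 had differences between 0.05 and 0.18 and adjusted p between 0.504 and 0.979. A missed threshold does not show that these genes were alike in LF and HF muscle. Over the 10 members, 7 lay above the all-gene median and 3 below, with a median of 0.05.

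The composition of the other families was computed in the same way and not tested. P3h2 made up 70.7% to 81.4% of the summed P3h1, P3h2 and P3h3 TPM. The P3h1 share was 13.8% ± 0.572 (SD, n = 3) in LF controls and 13.5% ± 1.52 after laparotomy in LF, against 17.1% ± 3.16 in HF controls and 17.7% ± 3.47 in HF laparotomy libraries. It spanned 12% to 15% over the LF and 13.8% to 20.7% over the HF libraries, which overlapped. Plod1 took 44.2% to 52.3% of the lysyl hydroxylase TPM, Plod3 41.3% to 49.9% and Plod2 3.26% to 6.91%. The library with the lowest Plod1 share was HF laparotomy 3, which also had the highest Plod3 level, 12.9 TPM. LF and HF ranges overlapped for each of these shares. Plod3 has exons that overlap those of Znhit1 on the opposite strand, a gene with a mean of 31.3 TPM, and P3h1 starts 203 bases from AU022252 on the opposite strand. P3h2 and Plod2 also have exons that overlap those of opposite-strand genes, Gm4524 and Gm38391, for which no level was given. The labels do not state whether the quantification used strand. A part of the Plod3, P3h2 or Plod2 level could therefore belong to the overlapping gene.

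**Figure D2:**
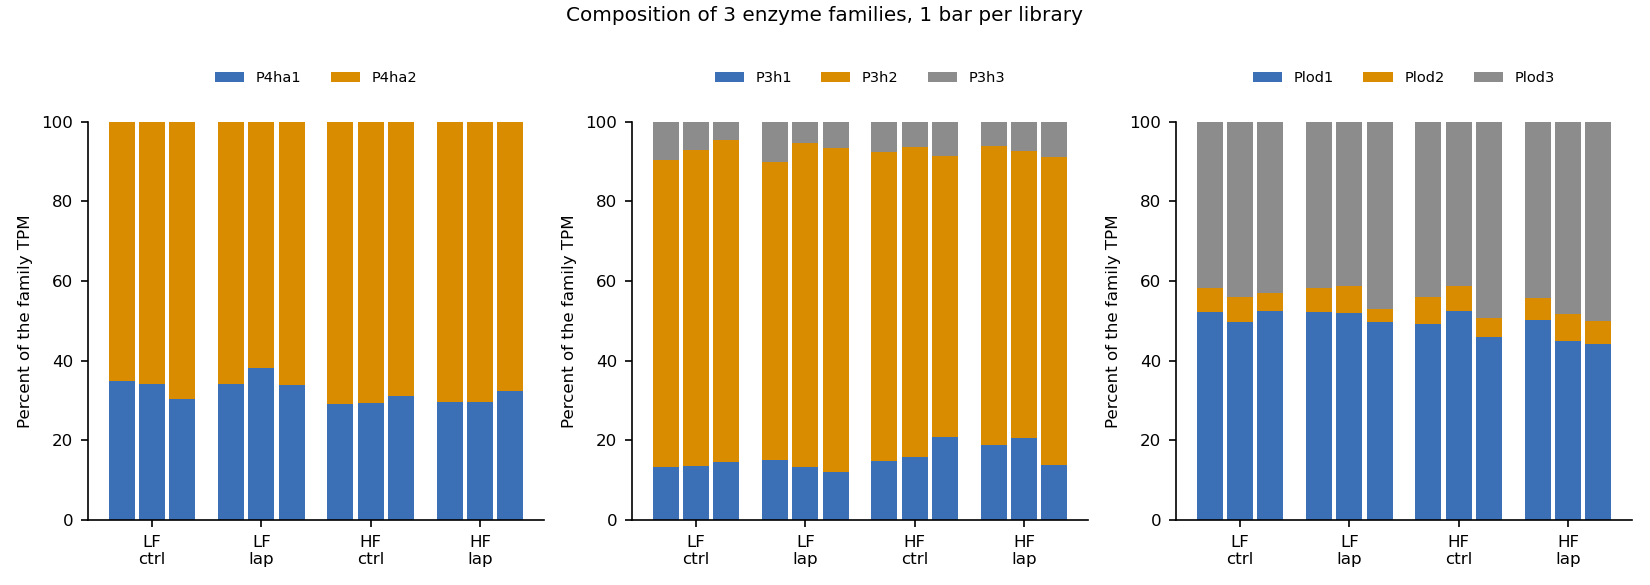
Percent of the summed TPM of each enzyme family in each library, 1 bar per library and 3 per group. The P4ha2 segment spans 67.6% to 70.9% in HF libraries and 61.9% to 69.5% in LF libraries; in the other families LF and HF bars overlap as well.

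Of 9 partner and companion genes of the endoplasmic reticulum 8 were tested (P4ha3 was near 0), and 1 rose and 2 fell in HF muscle, near the 41.3% of all tested genes that were called. With size factors 2 rose and 1 fell. Crtap, the scaffold of the P3h1 complex, rose. It had 6.76, 6.72 and 6.16 TPM in LF controls and 5.49, 6.02 and 5.71 after laparotomy in LF; HF controls had 7.62, 8.21 and 7.78 and HF mice after laparotomy had 6.4, 7.03 and 9.57. The 5 highest of 12 libraries were all HF, and 1 HF library fell among the LF values. The difference was 0.44 ± 0.088 (limma, adjusted p = 0.0189), but without the 3 libraries in which Myh4 exceeded 30 TPM the adjusted p was 0.078. Ppib, the cyclophilin of the same complex, had a difference of 0.37 ± 0.084 (limma, adjusted p = 0.0519), just outside the threshold, and 0.00131 with size factors. Crtap per P3h1 TPM was 2.11 ± 0.231 (SD, n = 3) in LF controls and 2.03 ± 0.155 after laparotomy in LF. In HF controls it was 2.46 ± 0.102, and in HF laparotomy libraries 2.52 ± 0.965. The last of these SDs reflects HF laparotomy 3, at 3.63.

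Colgalt1, which adds galactose to hydroxylysine, fell in HF muscle. Its levels were 17.5, 19.5 and 21.6 TPM in LF controls and 12.7, 15.7 and 23.2 after laparotomy in LF; HF controls had 10.6, 13.8 and 11.8 and HF mice after laparotomy had 8.84, 11.1 and 11.5. The HF mean was 38.8% below the LF mean, with a difference of -0.50 ± 0.13 (limma, adjusted p = 0.00236) and a single HF library, HF control 2, inside the LF range. Tmem38b, a channel of the endoplasmic reticulum needed for normal collagen modification, fell by 0.19 ± 0.092 (limma, adjusted p = 0.0118), but had an adjusted p of 0.0748 with size factors. P4hb, with a difference of 0.01, Fkbp10 with 0.12, Fkbp14 with -0.05 and Colgalt2 with 0.21 did not pass. The median of the 8 tested partners was 0.06.

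**Figure D3:**
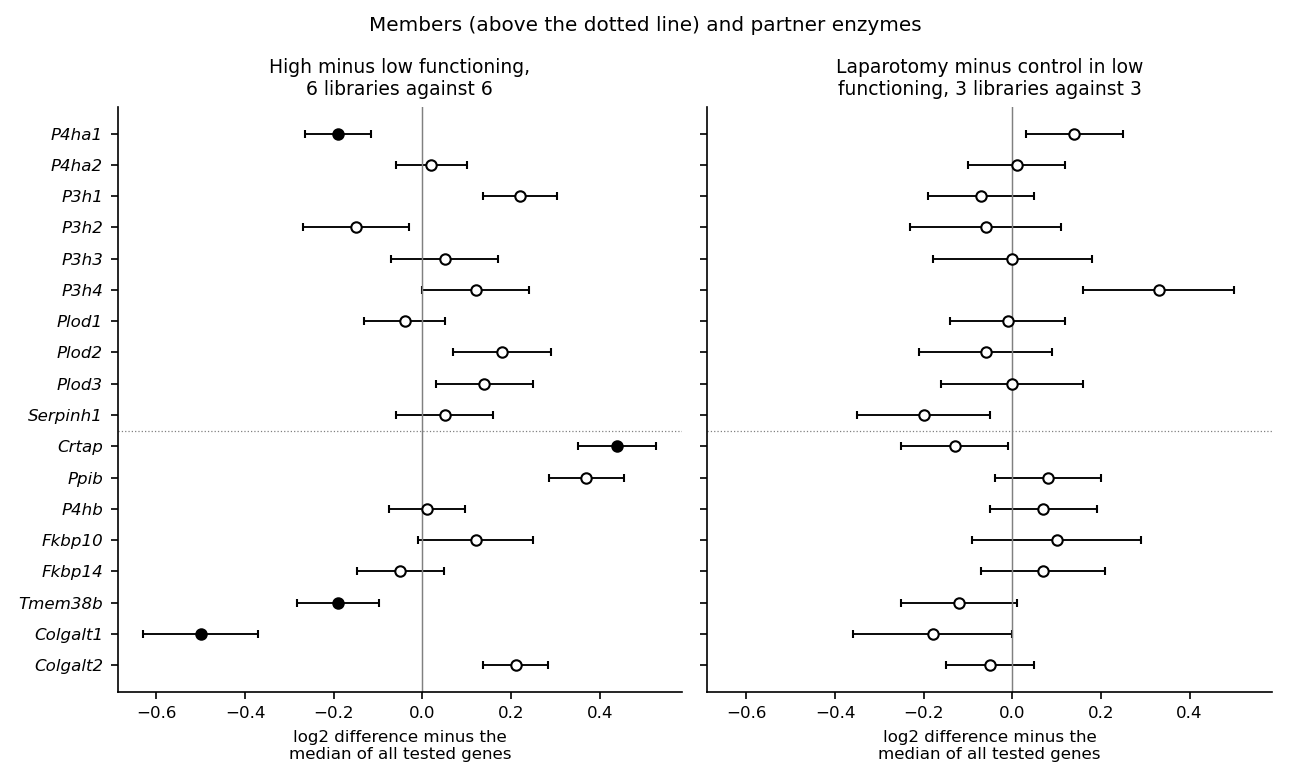
log2(TPM + 1) differences minus the median of all tested genes, with SE bars, for the members (above the dotted line) and their partners; filled points have an adjusted p under 0.05. P4ha1, Tmem38b and Colgalt1 lie left of 0 and Crtap lies right of 0 in the HF against LF panel, and no point is filled in the LF laparotomy panel.

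Steps after modification were read from lists chosen by name. Of 12 genes for procollagen export and processing 8 were tested, and 3 fell and 1 rose in HF muscle, with a median of -0.06. That count was near the background of 35.3% lower and 6.03% higher over all tested genes. The genes that fell were the coat subunit Sec23a by 0.58 ± 0.12 (limma, adjusted p = 0.00116), the cargo receptor Mia3 (TANGO1) by 0.38 ± 0.11 (adjusted p = 0.00314) and its relative Mia2 by 0.29 ± 0.11 (adjusted p = 0.00926). Pcolce, which enhances removal of the procollagen C-propeptide outside the cell, rose by 0.49 ± 0.12 (limma, adjusted p = 0.0361) and was not called under 9 of its alternatives. Mia3 ranged from 44.3 to 90.2 TPM, and these export genes serve other large cargo too. Among the 6 genes for crosslinking outside the cell 4 were tested and 0 passed; Lox, the lysyl oxidase that starts crosslinks, had a difference of 0.26 ± 0.18 (limma, adjusted p = 0.66).

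No collagen chain passed either, with 13 of 16 tested and a median difference of 0.04. Col1a1 and Col1a2, the chains of type I collagen, had differences of 0.01 ± 0.25 and 0.00 ± 0.22, and Col3a1, the chain of type III, -0.28 ± 0.28 (limma, adjusted p = 0.687, 0.633 and 0.228). Libraries of the same group differed widely for these chains. Col1a1 was 7.68, 3.89 and 2.42 TPM in LF control and 2.38, 7.55 and 3.31 in HF control, against 2.9, 3.73 and 3.02 in LF laparotomy and 1.93, 2.41 and 3.92 in HF laparotomy. LF control 1 and HF control 2 stood apart. The members covered a narrower range than the collagen chains. The highest library was 1.79 times the lowest in the median member (1.4 times for P3h1, 2.91 times for P3h4). The same ratio had a median of 2.37 over 13 collagen chains, 3.08 over 4 tested crosslinking genes and 1.75 over 10696 genes above 0 in every library. Ratios of this kind are a description and were not tested.

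The hypoxia list was read beside P4ha1, which is one of the classical targets of that response. Of its 16 genes, 2 rose and 6 fell in HF muscle, with a median of -0.01; with size factors 4 rose and 3 fell. The share that fell was near the 35.3% of all tested genes, and with size factors near their 22.6%. Lactate dehydrogenase Ldha fell by 0.33 ± 0.08 (limma, adjusted p = 0.00101) and pyruvate dehydrogenase kinase Pdk1 by 0.30 ± 0.098 (adjusted p = 0.004). The glycolytic gene Pgk1 fell by 0.17 ± 0.068 (limma, adjusted p = 0.00343), with an adjusted p of 0.148 under size factors. Egln3, also on the list, fell by 0.46 ± 0.15 (limma, adjusted p = 0.00613) and was called under all 23 alternatives. Its HF libraries, at 26.7 to 47.8 TPM, were all below its LF libraries, at 49.8 to 72.9. Ldha separated in the same direction, as did 9.31% of all tested genes. Hexokinase Hk2 rose by 0.57 ± 0.074 (limma, adjusted p = 0.00124), with every HF library above every LF library. Vegfa, the angiogenic ligand, had 0.02 ± 0.079 (adjusted p = 0.227). The part of this response in the P4ha1 difference was not tested.

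Cell markers were set beside the P4ha1 difference. Over all tested genes 6.03% rose and 35.3% fell in HF muscle, or 17.5% and 22.6% with size factors. Fibroblast and fibroadipogenic markers rose for 1 of 9 genes (Ly6a), and their summed TPM ran from 315 to 600 in LF and 316 to 652 in HF libraries. Fast fibre markers fell for 1 of 6 (Myh2), with sums of 25404 to 35085 in LF and 20600 to 33102 in HF. Slow fibre markers rose for 2 of 6 (Tnnt1 and Tnnc1), with sums of 27365 to 37356 in LF and 34726 to 42613 in HF. Endothelial markers rose for 3 of 7, with sums of 166 to 228 and 201 to 271. Schwann and nerve markers rose for 3 of 5 tested, and their sums did not overlap, at 34 to 44.3 in LF and 51.5 to 169 in HF. Smooth muscle and pericyte markers fell for 2 of 6, with overlapping sums of 251 to 297 in LF and 227 to 281 in HF. Cspg4, a pericyte proteoglycan, fell by 0.50 ± 0.085 (limma, adjusted p = 0.000379). Every HF library was below every LF library, as for P4ha1 and for 9.31% of all tested genes. The LF and HF ranges of all other genes on this list overlapped, the pericyte genes Pdgfrb and Rgs5 included. Myh11, the smooth muscle myosin, fell by 0.17 ± 0.094 (limma, adjusted p = 0.016), with an adjusted p of 0.193 under size factors. Adipocyte markers rose for 1 of 3 tested (Fabp4, by 0.63 ± 0.11; limma, adjusted p = 0.00438), with sums of 292 to 383 in LF and 374 to 600 in HF and Plin1 at 0 in at least 1 library. Macrophage and tendon markers had 0 of 6 and 0 of 5 tested genes called. The tendon calls depended on single libraries, and all 5 tested tendon markers lay above the all-gene median. Leaving out LF control 1 gave Comp, Chad and Fmod adjusted p (limma) of 0.00471, 0.0179 and 0.0478. Leaving out HF control 1 gave Scx 0.0199, and Thbs4 was called under no alternative. The markers of the fibroblast, fibre, endothelial, Schwann and smooth muscle lists were above 0 in every library. Their part in the P4ha1 difference was not tested. Without the 3 libraries with Myh4 above 30 TPM the P4ha1 difference was -0.19 (limma, adjusted p = 0.0128).

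Laparotomy in LF mice was compared as 3 libraries against 3. None of the 10 members passed the threshold, and neither did any other tested gene (0% of 10757), while 291 genes, 2.71%, had an unadjusted limma p under 0.05. A fit without the filter on low values called 5 genes, a fit of the LF libraries alone 1 and array weights 734. P3h4 had the largest difference among the members, 0.33 ± 0.17 (limma, unadjusted p = 0.111). Its levels were 4.31, 3.71 and 5.5 TPM in LF control and 5.3, 5.07 and 6.87 in LF laparotomy, with overlapping ranges. Serpinh1 lay the other way, at -0.20 ± 0.15 (limma, unadjusted p = 0.153), with 4.55, 4.08 and 5.25 TPM in LF control and 3.88, 2.84 and 4.78 in LF laparotomy. The remaining 8 lay between -0.07 and 0.14, and the median over the 10 was -0.01. No partner, crosslinking gene, export gene or collagen chain passed; the 13 chains had a median of -0.23 and 10 lay below the all-gene median, with LF control 1 the highest library for Col1a1, Col1a2 and Col3a1.

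P3h4 carried the pattern for which it was chosen. In HF control it had 7.94, 8.2 and 5.25 TPM and in HF laparotomy 2.82, 3.78 and 3.56. The groups did not overlap, and the LF values of 3.71 to 6.87 TPM lay across the gap between them. The HF laparotomy mean of 3.39 ± 0.502 TPM (SD, n = 3) was 47.5% of the HF control mean of 7.13 ± 1.63. The log2(TPM + 1) difference was -0.75 ± 0.17 (SE) after removing the median of all genes, and -0.88 as deposited. Leaving out single HF libraries moved it between -0.67 and -0.89. P3h4 was chosen by this contrast, so neither the SE nor this range is support for the difference. In that contrast 16.6% of all tested genes had all HF laparotomy libraries below all HF control libraries, and 0.604% had them above. No gene passed the adjusted threshold there (0% of 10757; 665 genes, 6.18%, with an unadjusted limma p under 0.05; 3 genes with array weights, 1 without the filter).

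The other 9 members lay close to the all-gene median in the same libraries. The nearest in direction was P4ha2 at -0.02 ± 0.11, followed by P4ha1 at 0.03 ± 0.11, and Plod3 was the highest at 0.26 ± 0.16. None of the 9 separated HF laparotomy from HF control. Serpinh1 had 4.46, 4.04 and 3.37 TPM in HF control and 3.85, 3.21 and 4.21 in HF laparotomy. P3h3, a partner of P3h4 in its complex, had 1.59, 1.37 and 1.28 TPM in HF control and 1.04, 1.32 and 1.69 in HF laparotomy, and Plod1 had 9.5, 11.8 and 9.34 against 8.41, 10.4 and 11.4. Ppib was at 40.3, 37.6 and 36.5 TPM against 33.7, 38.5 and 47. P3h4 per Plod1 therefore went from 0.698 ± 0.136 (SD, n = 3) in HF control to 0.337 ± 0.0263 in HF laparotomy, beside 0.378 ± 0.0341 in LF control and 0.5 ± 0.0683 in LF laparotomy. The HF control ratio was the highest of the 4, and LF laparotomy libraries were all above LF control libraries. P4hb per summed P4ha1 and P4ha2 TPM was 5.97 ± 0.0335 in HF laparotomy and 4.84 ± 0.251 in HF control, again without overlap. It was 5.07 ± 0.285 in LF control and 5.15 ± 0.612 in LF laparotomy. These ratios were not tested, and the share of all gene pairs that separate in this way was not computed.

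P3h4 lies on chromosome 11 (chr11:100408456-100414836, minus strand, GRCm38), and its start is 861 bases from that of Fkbp10 (chr11:100415697-100424824, plus strand), a collagen chaperone that works with Plod2. The pair is transcribed outward from the stretch between their starts. Fkbp10 had 2.69, 4.11 and 2.2 TPM in HF control and 2.15, 2.12 and 3.04 in HF laparotomy, with overlapping ranges and a difference of -0.08 ± 0.19. P3h4 per Fkbp10 was 2.95, 2 and 2.38 in HF control and 1.31, 1.78 and 1.17 in HF laparotomy, and 1.26 to 2.19 over the LF libraries. Fkbp10 did not separate the HF groups as P3h4 did.

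Tendon marker levels are set beside P3h4. Of 9 listed genes 5 were tested. Of these 5, Scx, Fmod, Comp and Chad (4 genes) had all HF laparotomy libraries below all HF control libraries. Among all tested genes 16.6% showed that separation. The TPM summed over the 9 genes was 28.9 to 48.5 in HF control and 20.2 to 23.8 in HF laparotomy. The LF sums were 18.9 to 60.4 in control and 16.9 to 25.4 in laparotomy libraries. In LF muscle all 5 tested tendon markers lay below the all-gene median after laparotomy, with a median of -0.52 and 0 called. LF control 1 was the highest LF library for each of the 5, and the LF ranges overlapped. Comp had 4.59, 1.19 and 0.797 TPM in LF control and 1.26, 0.958 and 0.602 in LF laparotomy. P3h4 lay at 0.33 in that contrast. Scx, the tendon transcription factor, had 6.17, 12.8 and 10.7 TPM in HF control and 5.1, 5.55 and 5.35 in HF laparotomy. Chad, a cartilage and tendon matrix protein, had 2.02, 2.21 and 1.96 against 0.32, 0.268 and 0.21. The library with the highest tendon sum, LF control 1, had a Chad level of 2.86 TPM and a P3h4 level of 4.31, within the LF range. Fibroblast marker sums overlapped, at 410 to 487 in HF control and 316 to 652 in HF laparotomy. The tendon gene Kera was at 0 in at least 1 library. The part of tendon tissue in the P3h4 difference was not tested.

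**Figure D4:**
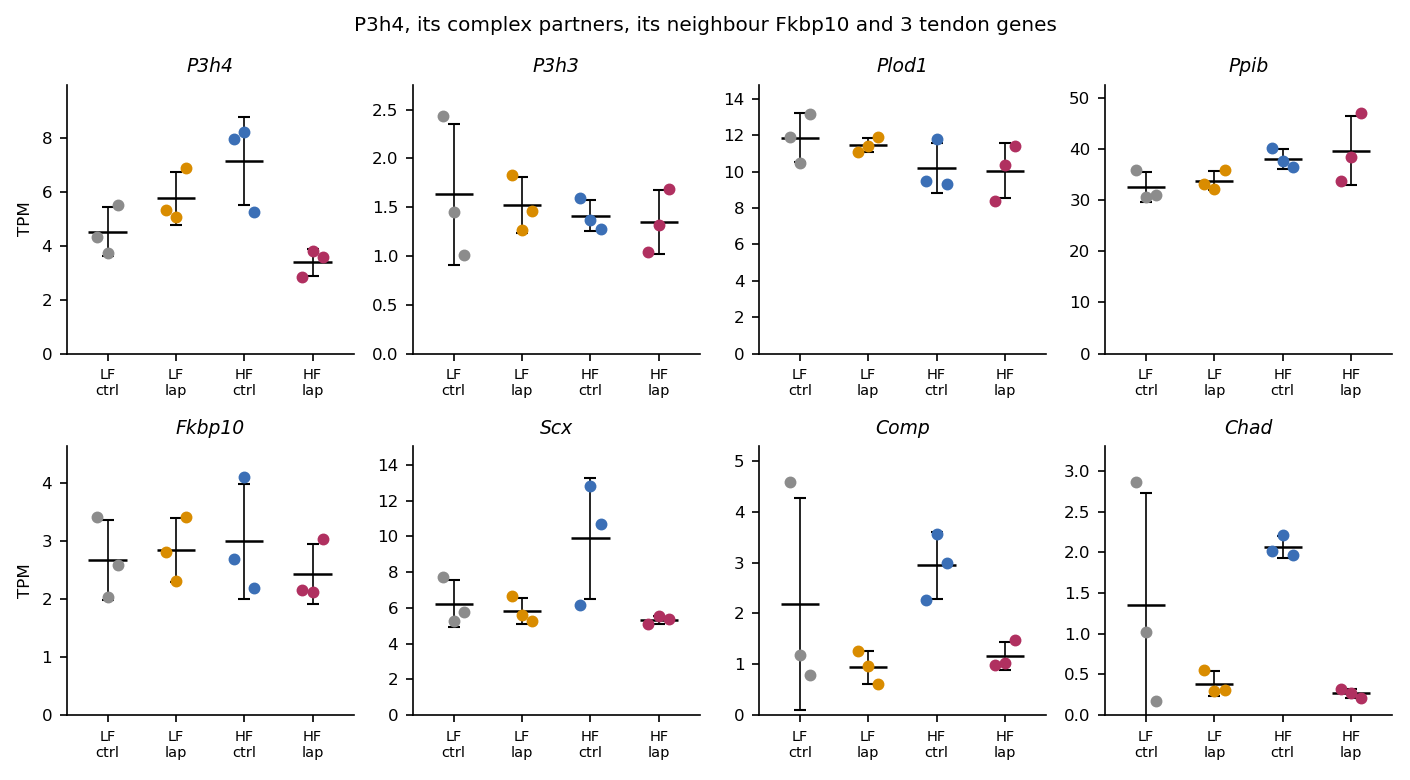
TPM of P3h4, of its complex partners P3h3, Plod1 and Ppib, of its neighbour Fkbp10 and of the tendon genes Scx, Comp and Chad in each library, with group means and SD bars; vertical axes start at 0 and differ between panels. P3h4, Scx, Comp and Chad are lower in all HF laparotomy than in all HF control libraries, while P3h3, Plod1, Ppib and Fkbp10 overlap.

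The genes most like P3h4 over the 12 libraries were ranked by the root mean square difference of standardised log2(TPM + 1) values, where 0 is identity. Zfp784, a zinc finger gene, was the nearest at 0.29, followed by Ift46, a gene for transport in cilia, at 0.47. Zfp784 had 4.93, 4.8 and 4.03 TPM in HF control and 3.71, 3.79 and 3.86 in HF laparotomy, so its range was much narrower than that of P3h4. For Serpinh1 (chr7:99345376-99353239, minus strand) the nearest were Zfyve19 at 0.43, Tmem159 at 0.52 and Ing5 at 0.56. No collagen chain, partner or other member was among them. Only the 3 nearest of 10757 tested genes were kept for each, so their absence does not show how closely they followed. The P3h4 ranking includes the HF values by which P3h4 was chosen. Serpinh1 per Col1a1 ran from 0.535 in HF control 2 to 2.17 in LF control 3, as Col1a1 varied 3.97 times over the libraries and Serpinh1 1.85 times.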

How the data were processed

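RNA was extracted with QIAzol and an RNeasy column and sequenced from stranded TruSeq libraries made after polyA pull-down, per the labels' protocols. The authors deposited gene-level TPM; kallisto, DESeq2 and GRCm38 are named in the submitters' processing notes, without versions, roles or a strand setting. GENCODE M21 (GRCm38) gave coordinates and the symbols of 29857 of the 30323 identifiers; windows before gene starts came from RefSeq (GRCm38.p6).

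Values were taken to log2(TPM + 1), and the 10757 genes averaging 1 TPM or more were fitted with limma 3.58.1 in R 4.3.3 (trended prior variance, a mean for each group, two-sided, 8 residual degrees of freedom). Benjamini-Hochberg adjusted p-values cover all tested genes of a contrast, with a threshold of 0.05. Fold differences this way understate changes of low genes. The script was tested on simulated data. Levels and ratios without a test were computed with Python 3.11.15. The members and lists were chosen with earlier results of these data known. Named were all members, 8 fixed partner, crosslinking and collagen genes, up to 4 genes per other list past the threshold by smallest p, 3 genes most like P3h4 and Serpinh1 in pattern (predicted and Riken genes left out), and genes overlapping a member or starting within 1 kb of it; other genes were named after their values were seen, and a gene that the rule names is not reported here. Alternatives were other pseudocounts (0.5, 0.1), testing all genes, a minimum mean of 5 TPM, size factors, quantile normalization, TPM rescaled without 13 mitochondrial and 10 abundant genes, robust eBayes, array weights, only the groups compared, a threshold of 0.10, and leaving out 1 library or the 3 with Myh4 above 30 TPM.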

Additional observations from a re-analysis of the deposited data

How the results depend on the processing

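P4ha1 stayed below LF and past the threshold in HF muscle under all 23 alternatives, with differences of -0.25 to -0.17 and adjusted p (limma) up to 0.0195. The number of members called in HF against LF was 3 with array weights (P3h2, P4ha1 and Plod1), 2 at a threshold of 0.10 (P3h2 and P4ha1), and 1 to 2 when single libraries were left out. Array weights also called 1 member, Serpinh1, after laparotomy in LF (-0.51; limma, adjusted p = 0.0156), against 0 in the other alternatives, where leaving out single libraries gave 0 to 0; the cause was not tested, and the weights stopped before convergence. Over all genes array weights called 6894 in HF against LF, beside 4447. With quantile normalization 2020 were higher and 2368 lower, and with rescaled TPM 1176 and 3404, beside 649 and 3798. A fit of only the groups compared is the same fit for HF against LF, and with a mean of at least 5 TPM P3h1, P3h3, Plod2 and Serpinh1 were not tested.

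Signs of differences near 0 were not stable; the cause was not tested. In HF against LF, quantile normalization gave P3h3 -0.03, and leaving out single libraries gave P3h3 -0.04 to 0.15, P4ha2 -0.01 to 0.07 and Serpinh1 -0.03 to 0.09. After laparotomy in LF, array weights gave P3h1 0.07, P3h2 0.16, Plod2 0.14 and P4ha2 -0.06, and quantile normalization gave Plod1 0.01. Leaving out single libraries gave P3h1 -0.14 to 0.03, P3h2 -0.16 to 0.02, Plod1 -0.07 to 0.05, Plod2 -0.17 to 0.14 and P4ha2 -0.05 to 0.09. The P3h4 description in HF muscle, in the contrast it was chosen by, ran from -0.89 to -0.67. Read depth is unknown, so the error of low genes such as Plod2 and P3h3 could not be split into counting and other error. No paired analysis was possible because the labels give no replicate numbers shared between groups.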
